A study of Schizosaccharomyces pombe with 2 samples.

Results

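The 63 genes described here are fission yeast (Schizosaccharomyces pombe) genes picked by a rule on their symbols. Most of them serve autophagy, vacuolar protein sorting or vacuolar acidification, and other genes of these pathways carry other symbols. The rule reads names and no signal, although it was written with earlier results of these data known. A probe set had to name a single S. pombe gene whose symbol in the platform annotation was atg, vps or vma followed by digits only, or was isp6, psp3 or cpy1. This gave 17 atg genes, 31 vps genes, 12 vma genes and 3 protease genes, out of 2896 S. pombe genes that the array reads and the annotation names singly. Each of the 63 genes had 1 probe set, and all 63 lay above the array background on both arrays. Background was read from the probe sets that the same array carries for budding yeast, Saccharomyces cerevisiae, whose RNA was not hybridised. Their 95th percentile on each array served as the floor.

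The study exposed log-phase cells for 2 h to DETA NONOate at 0.5 mM and hybridised their total RNA to 1 Affymetrix Yeast Genome 2.0 array, with a second array for untreated cells. DETA NONOate is a nitric oxide donor, which breaks down slowly in water and sets the gas free. Both cultures grew at 30 °C in YES, a rich medium. The labels name no strain and no sampling time for the untreated culture, and neither array carries cells given the spent compound.

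Autophagy is the process by which a cell wraps part of its cytoplasm in a double membrane and delivers it to the vacuole, the yeast counterpart of the lysosome. A kinase complex around Atg1 starts it, a lipid kinase complex marks the membrane with phosphatidylinositol 3-phosphate, and the ubiquitin-like protein Atg8 is attached to the growing membrane. Vacuolar sorting (vps) genes carry enzymes and membrane cargo between the Golgi, endosomes and the vacuole, and many encode subunits of coat, tether and membrane-bending complexes. The vacuolar ATPase (vma genes) pumps protons into the vacuole, whose acidity the resident proteases need. In fission yeast, as in other fungi, autophagy is best known as a response to nitrogen starvation.

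With 1 array per group there is no replicate check. No difference below has an error or a p-value, and precision is limited by the number of arrays. A log2 ratio is the log2 signal on the DETA NONOate array minus that on the untreated array, after signals under the floor were raised to it. The floor was a signal of 8.76 on the DETA NONOate array and 7.99 on the untreated array. The authors' values had been scaled, with a 2% trimmed mean of 500.3 on each array, so a ratio is relative to the rest of the array. Bacterial and phage control RNAs give a view of the technical spread. Over 35 control probe sets with a signal of at least 100 on both arrays, the log2 ratios had an SD of 0.15 and lay between −0.31 and 0.42. The other 29 control probe sets were dimmer, and over all 64 the SD was 0.24 and the lowest log2 ratio −0.76. Of the 64, 2 were at least 1.5-fold apart, both with signals of at most 26.1. That spread leaves out differences between cultures.

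The autophagy genes and the vacuolar proteases had higher signals on the DETA NONOate array, the sorting genes were mixed with a small upward median, and the proton pump genes were centred near 0. Of the 17 atg genes, 16 had a ratio above 0, with a median log2 ratio of 0.47 (1.39-fold higher). The ratios of atg7, atg9, atg1, atg2, atg14, atg22, atg12 and atg3 lay inside the range of the brighter control probe sets. All 3 proteases were between 1.41-fold and 1.46-fold higher. Of the 31 vps genes, 22 had a ratio above 0, with a median of 0.11. Of the 12 vma genes, 5 had a ratio above 0, with a median of −0.04 that moved to 0.01 after quantile normalization. Over all 2889 S. pombe genes measured above the floor on at least 1 array, 49.2% had a ratio above 0 and the median was −0.01.

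No member reached 2-fold in either direction, against 2.25% of all measured genes higher and 2.04% lower, so smaller differences were counted. At 1.5-fold or more, 8 of the 63 members were higher and 2 were lower. Of all measured genes, 5.68% were at least 1.5-fold higher and 6.61% at least 1.5-fold lower. The 8 higher members were 6 of the 17 atg genes and 2 of the 31 vps genes. Both lower members were vps genes, so that 2 of the 31 vps genes were counted in each direction, close to the shares of all genes. At a lower threshold, a log2 ratio of at least 0.322, 12 of 17 atg genes, 6 of 31 vps genes, 0 of 12 vma genes and all 3 proteases were higher, against 14.2% of all measured genes. At that threshold in the other direction, 0 atg genes, 2 vps genes, 2 vma genes and 0 proteases were lower, against 18.1% of all measured genes. The fold of 1.5 is a convention and not a measured limit. The nearest members above it were atg18 at 1.51-fold and vps902 at 1.52-fold, and the nearest below it were isp6 at 1.46-fold and atg15 at 1.45-fold.

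**Figure D1:**
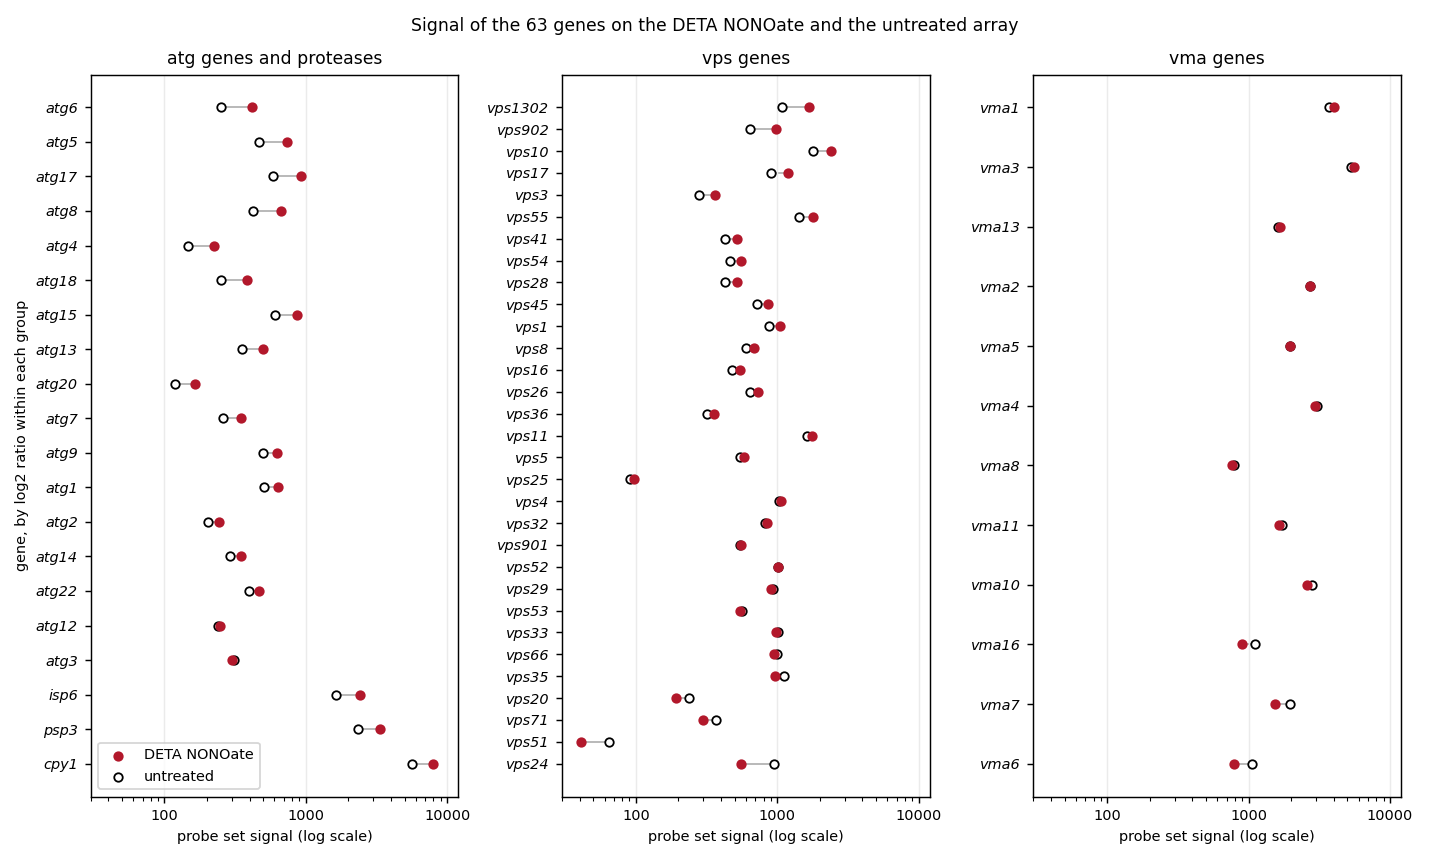
Probe set signal (log axis) of the 63 genes on the DETA NONOate array (filled red) and the untreated array (open black), 1 array each, so no error bars. The panels show atg genes with the 3 proteases, vps genes and vma genes, each group ordered by log2 ratio; 16 of 17 atg genes and all 3 proteases lie to the right on the DETA NONOate array, while most vma pairs nearly coincide.

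The Atg1 kinase complex starts autophagosome formation. Its scaffold gene atg17 (SPAC10F6.11c) had a signal of 930.4 on the DETA NONOate array and 589 on the untreated array, 1.58-fold higher. The gene of the regulatory subunit, atg13, was 1.42-fold higher with signals of 501 and 352 on the DETA NONOate and untreated arrays. The kinase gene atg1 itself was 1.26-fold higher. All 3 named subunits were therefore higher, and the kinase gene had the smallest ratio of them. The array carries another pair of genes of this complex under other names. RefSeq calls the platform's taf1 atg11, and its log2 ratio was 0.38. RefSeq calls the platform's mug66 atg101, and its log2 ratio was −0.28, with signals of 136 on the DETA NONOate array and 165 on the untreated array. Over these 5 genes, 4 were higher and 1 was lower on the DETA NONOate array.

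The lipid kinase complexes make phosphatidylinositol 3-phosphate for both autophagy and endosomal sorting. Their shared subunit gene atg6 (SPAC20G8.10c), the counterpart of mammalian Beclin 1, had a signal of 415 on the DETA NONOate array and 251 on the untreated array. At 1.65-fold higher it had the highest ratio of the 63 members, and 3.95% of all measured genes had a higher one. The platform's atg14 is the gene SPBC18H10.19, which RefSeq now calls vps38, a subunit of the sorting form of the complex. It had signals of 348 on the DETA NONOate array and 292 on the untreated array, 1.19-fold higher. Without it, the 16 remaining atg genes had a median log2 ratio of 0.49, and 15 of them were above 0. The catalytic subunit gene pik3 and the regulatory kinase gene vps15, called ppk19 on the array, are not members by name. The gene pik3 was 1.52-fold higher, with signals of 921 on the DETA NONOate array and 606 on the untreated array, and vps15 was 1.45-fold higher. All 4 measured genes of these complexes, with vps38 of the sorting form among them, thus had higher signals on the DETA NONOate array. Their median log2 ratio was 0.57.

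Conjugation of Atg8 to lipid and of Atg12 to Atg5 held both high and near-zero ratios. The gene atg8 (SPBP8B7.24c), whose product coats the forming membrane, had a signal of 664 on the DETA NONOate array and 421 on the untreated array, 1.58-fold higher. The gene atg4, for the protease that cleaves Atg8 before and after conjugation, was 1.52-fold higher, with signals of 223 and 146 on the DETA NONOate and untreated arrays. The gene atg5 (SPBC4B4.10c), whose product is joined to Atg12, had signals of 741 on the DETA NONOate array and 463 on the untreated array, 1.60-fold higher. The activating enzyme gene atg7, which serves both reactions, was 1.33-fold higher. In contrast, atg12 and the conjugating enzyme gene atg3 hardly differed. The gene atg12 had signals of 247 on the DETA NONOate array and 240.2 on the untreated array, a log2 ratio of 0.04. The gene atg3 had signals of 302 on the DETA NONOate array and 311 on the untreated array, a log2 ratio of −0.04. It was the single atg gene with a ratio below 0, under the reported processing and all 7 alternatives, several of which could not alter an atg ratio.

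Genes for membrane supply and for the end of the pathway were all above 0. Atg9 is the membrane protein that seeds the structure, Atg2 transfers lipid, and Atg18 binds phosphatidylinositol 3-phosphate. The gene atg18, called atg1801 in RefSeq, was 1.51-fold higher, with signals of 382 on the DETA NONOate array and 253 on the untreated array. The sorting nexin gene atg20 was 1.39-fold higher, atg9 1.27-fold and atg2 1.21-fold. The atg2 signals were 245 on the DETA NONOate array and 203 on the untreated array. The related gene atg1802, named mug179 on the array and so no member, was 1.49-fold higher. Atg15 is the lipase that opens autophagic bodies inside the vacuole, and its gene had signals of 871 on the DETA NONOate array and 602 on the untreated array, 1.45-fold higher. The gene atg22, whose counterpart in S. cerevisiae exports amino acids from the vacuole, was 1.18-fold higher, with signals of 469 and 398 on the DETA NONOate and untreated arrays.

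The 3 vacuolar proteases had nearly the same ratio under the reported processing, where their log2 ratios had an SD of 0.03. Isp6 and Psp3 are subtilisin-type serine proteases, and cpy1 encodes carboxypeptidase Y. The gene isp6 (SPAC4A8.04) had a signal of 2412 on the DETA NONOate array and 1647 on the untreated array, 1.46-fold higher. The gene psp3 (SPAC1006.01) had signals of 3349.8 on the DETA NONOate array and 2342 on the untreated array, 1.43-fold higher. The gene cpy1 (SPAC19G12.10c) had signals of 7901 on the DETA NONOate array and 5619 on the untreated array, 1.41-fold higher. All 3 lay above the upper quartile of all measured genes, which was a log2 ratio of 0.19. The cpy1 ratio was the most sensitive of the 3 to processing, at a log2 ratio of 0.40 after quantile normalization, against 0.49 as reported. After quantile normalization the 3 log2 ratios ran between 0.40 and 0.58, so they were no longer nearly the same.

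**Figure D2:**
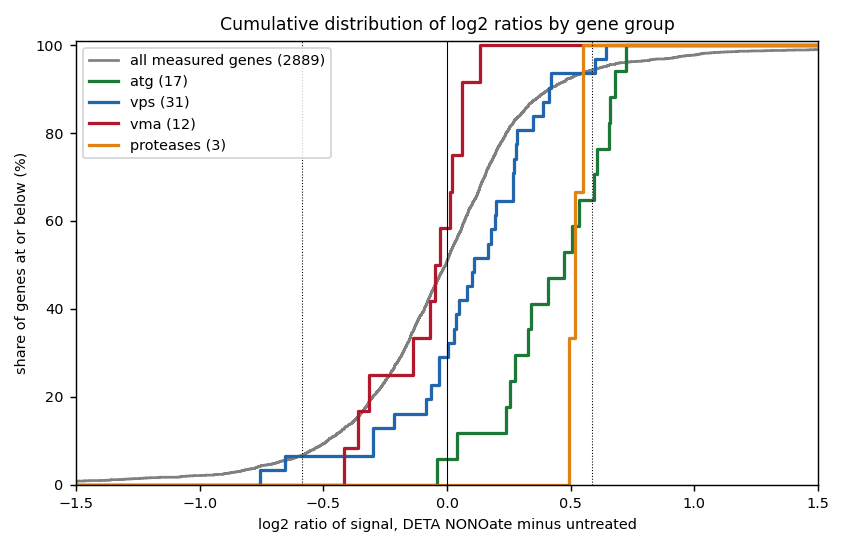
Cumulative share of genes (%) at or below each log2 ratio of signal, DETA NONOate minus untreated, for the 17 atg, 31 vps and 12 vma genes, the 3 proteases and all 2889 measured genes (grey); dotted lines mark 1.5-fold. The atg and protease curves lie to the right of the grey curve up to their own highest ratios, the vps curve is shifted less, and the vma curve rises steeply near 0. Of all measured genes, 3.95% had a higher ratio than the highest atg gene and 6.23% than the highest protease gene. The horizontal axis is limited to 1.5 in each direction.

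The vps genes ranged more widely than the other groups, between log2 ratios of −0.76 and 0.64. The highest ratio belonged to vps1302 (SPBC16C6.02c), of the Vps13 family of lipid transfer proteins. Its signal was 1687 on the DETA NONOate array and 1079 on the untreated array, 1.56-fold higher. The gene vps902, which RefSeq calls muk1, encodes a Vps9-family protein, a family of exchange factors for Rab GTPases of endosomes. It was 1.52-fold higher, with signals of 980.5 on the DETA NONOate array and 647 on the untreated array. Its relative vps901 had a log2 ratio of 0.03, against 0.60 for vps902. The gene vps10, for the receptor that sorts carboxypeptidase Y to the vacuole, was 1.34-fold higher, with signals of 2388 and 1784 on the DETA NONOate and untreated arrays. The gene vps55 was 1.27-fold higher. The fusion factor gene vps45 and the dynamin-family gene vps1 were both 1.20-fold higher.

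Retromer returns sorting receptors such as Vps10 from endosomes to the Golgi, and its 5 genes did not share a direction. The sorting nexin gene vps17 was 1.33-fold higher, with signals of 1202 on the DETA NONOate array and 903 on the untreated array. Its partner vps5 had a log2 ratio of 0.10. The cargo-binding core genes vps26, vps29 and vps35 had log2 ratios of 0.18, −0.03 and −0.21. The vps35 signals were 959 on the DETA NONOate array and 1113 on the untreated array. Subunits of a single complex thus ran between 1.33-fold higher and 1.16-fold lower. That span lies inside the range of the brighter control probe sets, log2 ratios between −0.31 and 0.42. The same range takes in every other vps gene but vps1302, vps902, vps24 and vps51. It also takes in every vma gene but vma6, vma7 and vma16.

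The HOPS and CORVET complexes tether membranes before they fuse with the vacuole or endosome. Of their 6 genes with a vps symbol, 5 had a ratio above 0, and the median log2 ratio was 0.20. The CORVET gene vps3 was highest at 1.31-fold, with signals of 363 on the DETA NONOate array and 278 on the untreated array. The HOPS gene vps41 was 1.22-fold higher, vps8 and vps16 had log2 ratios of 0.20 and 0.19, vps11 had 0.11, and vps33 had −0.06. With pep3 (Vps18) and vam6 (Vps39), which carry other names on the array, 7 of 8 genes were above 0. The GARP complex, a tether at the Golgi, had vps54 at 1.21-fold higher, vps52 and vps53 at log2 ratios of 0.00 and −0.03, and vps51 lower. The vps51 signal was 41.2 on the DETA NONOate array and 64.9 on the untreated array, 1.57-fold lower. It was the dimmest of the 63 members, and its log2 ratio moved between −0.81 and −0.50 over the alternative processings.

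ESCRT complexes sort ubiquitin-tagged membrane proteins into vesicles inside the endosome, and they held the lowest ratio of the 63 genes. The gene vps24 (SPAC9E9.14), for a subunit of the membrane-cutting ESCRT-III filament, had a signal of 559 on the DETA NONOate array and 943 on the untreated array. It was 1.69-fold lower, and 4.19% of all measured genes had a lower ratio. A second ESCRT-III gene, vps20, was 1.23-fold lower, with signals of 192 on the DETA NONOate array and 237 on the untreated array. The genes vps32 of ESCRT-III and vps4, for the ATPase that takes the filament apart, differed little, with log2 ratios of 0.04 and 0.05. The ESCRT-I gene vps28 was 1.21-fold higher, and the ESCRT-II genes vps36 and vps25 had log2 ratios of 0.17 and 0.08. Of 8 listed genes of or beside ESCRT with other names, 7 were above 0 and ist1 was below it. Their median was 0.28 and none was 1.5-fold apart, where 5.68% of all measured genes were that much higher and 6.61% lower. The ESCRT-0 gene sst4 was 1.40-fold and the ESCRT-I gene sst6 1.43-fold higher. The ESCRT-II gene dot2 (Vps22), added after its value was seen, was 1.61-fold higher.

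A vps symbol does not always mean a sorting protein. The gene vps71, called swc6 as well, belongs to a chromatin remodelling complex, and it was 1.23-fold lower with signals of 299 on the DETA NONOate array and 368 on the untreated array. The gene vps66 had a log2 ratio of −0.08. Without vps66 and vps71, 22 of the 29 vps genes were above 0, and the median log2 ratio was 0.17.

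**Figure D3:**
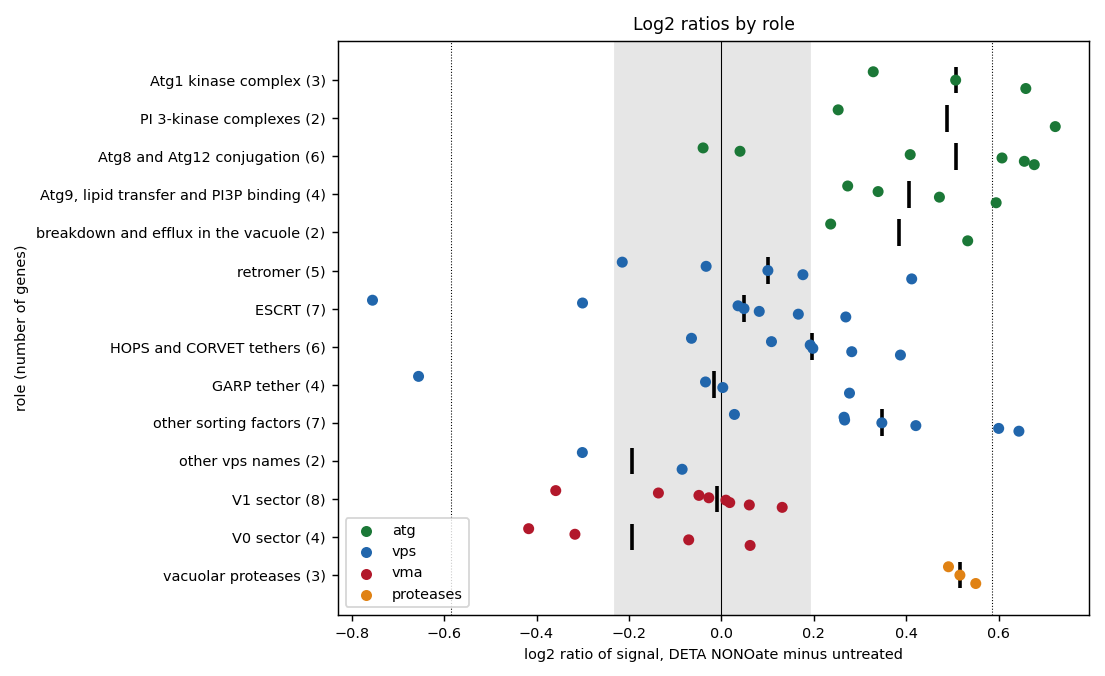
Log2 ratio of signal, DETA NONOate minus untreated, of each of the 63 genes (points, coloured by symbol group) by role, with the median of each role as a black bar, the quartile range of all measured genes in grey and 1.5-fold as dotted lines. All 5 autophagy roles, the proteases, the other sorting factors (0.35) and, narrowly, the HOPS and CORVET tethers (0.20) have medians above the grey range, and the medians of the other roles lie inside it.

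The proton pump has a peripheral V1 sector, which splits ATP, and a membrane V0 sector, which carries protons. The 8 V1 genes had a median log2 ratio of −0.01. The gene vma1, for the catalytic subunit, had the highest ratio of the 12, with signals of 4034 on the DETA NONOate array and 3682 on the untreated array, 1.10-fold higher. The gene vma2, for the other subunit of the ATP-splitting ring, had signals of 2738 on the DETA NONOate array and 2704 on the untreated array. The gene vma5 had signals of 1963 on the DETA NONOate array and 1949 on the untreated array, and vma13 had 1669 and 1600.2 on the DETA NONOate and untreated arrays. The genes vma2, vma5, vma13, vma4 and vma8 differed by at most 1.04-fold. The stalk subunit gene vma10 was 1.10-fold lower, with signals of 2569 on the DETA NONOate array and 2824 on the untreated array. The V1 gene furthest from 0 was vma7, with 1525 on the DETA NONOate array and 1955 on the untreated array, 1.28-fold lower.

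In the V0 sector, the proton-carrying ring genes differed in ratio. The gene vma3, for the main ring subunit, had signals of 5573 on the DETA NONOate array and 5337 on the untreated array, 1.04-fold higher. The ring gene vma11 had 1633 on the DETA NONOate array and 1715 on the untreated array, a log2 ratio of −0.07 that was 0.00 after quantile normalization. The ring gene vma16 had 891 on the DETA NONOate array and 1109 on the untreated array, a log2 ratio of −0.32. The gene vma6, for the subunit that links the ring to the stalk, had the lowest ratio of the 12. Its signals were 793 on the DETA NONOate array and 1058 on the untreated array, 1.34-fold lower. The large V0 subunit gene vph1 has no vma symbol and had a log2 ratio of 0.00. No vma gene lay above the upper quartile of all measured genes, 3 (vma6, vma7 and vma16) lay below the lower quartile of −0.23, and 9 lay between. By comparison, 15 of 17 atg genes, 12 of 31 vps genes and all 3 proteases lay above the upper quartile, which 25% of all measured genes exceed.

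Other genes of the same pathways were read from 6 lists of 107 symbols, of which 70 gave a measured gene that was no member. Another 34 symbols matched no named probe set, 2 named a member and 1 repeated a gene.

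Vacuolar transporters and hydrolases went both ways, with 4 of 14 at least 1.5-fold higher and 2 at least 1.5-fold lower. Of all measured genes, 5.68% were at least 1.5-fold higher and 6.61% at least 1.5-fold lower. The transporter genes abc3 (3.48-fold) and ctr6 (2.25-fold) were higher, as were hmt1 (1.55-fold) and fnx2 (1.54-fold). The iron transporter gene pcl1 was 11.7-fold lower, and vtc4, of the complex that makes vacuolar polyphosphate, was 1.70-fold lower. This list holds iron and copper transporters, and the median over its 14 genes was 0.24. Among the hydrolases in it, the mannosidase gene ams1 was 1.48-fold higher and the aminopeptidase gene ape2 was 1.36-fold higher.

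Fusion, adaptor and lipid kinase genes outside the vps names had a median log2 ratio of 0.06 over 19 genes. The gene pik3 was the single one at least 1.5-fold higher, a share near the 5.68% of all measured genes. At least 1.5-fold lower were 0 of them, against 6.61% of all measured genes. The 6 pump and pump-assembly genes without a vma symbol had a median of 0.01, with 0 at 1.5-fold in either direction, against the same 5.68% and 6.61%. The list for autophagy genes under other names had 2 measured genes, atg1802 and epr1, with log2 ratios of 0.58 and 0.16.

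The TORC1 kinase complex holds autophagy down when amino acids are plentiful. The list for it also holds genes of TORC2 and of other nutrient-sensing kinases. Its 21 measured genes had a median log2 ratio of 0.03, with 11 above 0. None was 1.5-fold higher, against 5.68% of all measured genes. Of the 21, 2 were at least 1.5-fold lower, a share near the 6.61% of all measured genes. These were psk1, a kinase gene whose product is a target of TORC1, at 1.87-fold, and gtr1, a GTPase gene of amino acid sensing, at 1.67-fold. The psk1 signals were 369 on the DETA NONOate array and 691 on the untreated array, and the gtr1 signals were 515 on the DETA NONOate array and 859 on the untreated array. The genes of the kinases Tor2 and Tor1 had log2 ratios of 0.15 and 0.41. The array reads transcript abundance, and kinase activity and autophagic flux were not measured.

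**Figure D4:**
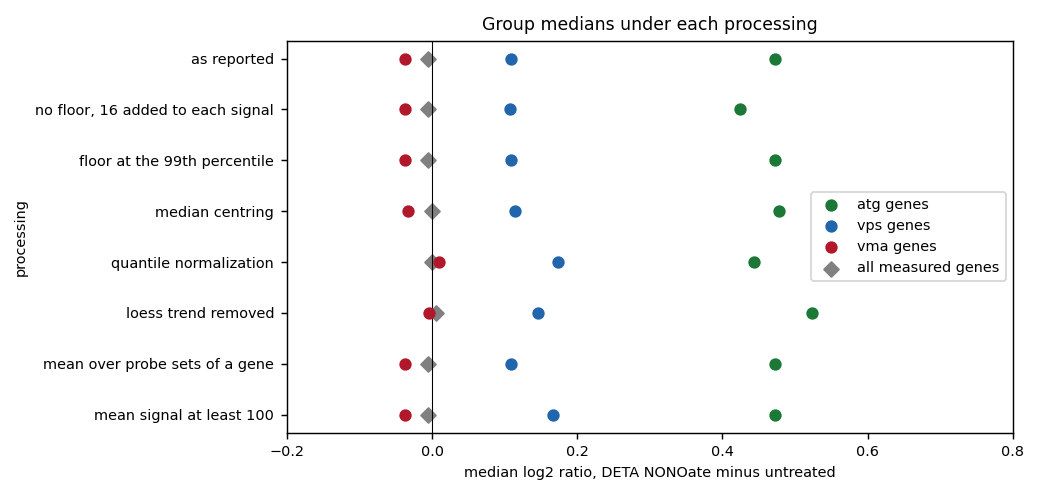
Median log2 ratio, DETA NONOate minus untreated, of the atg, vps and vma genes and of all measured genes (grey diamonds), 1 row for each processing, with the reported one on top. The atg median lies between 0.42 and 0.52 in all 8, the vps median between 0.11 and 0.17, and the vma median between −0.04 and 0.01. The higher floor, probe set means and minimum signal could not move the atg or vma medians.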

How the data were processed

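The table deposited by the authors holds 1 linear intensity per probe set and array. The submitters' processing notes name Affymetrix Expression Console, without a version or a summarisation algorithm. Per the labels' protocols, biotinylated cRNA was made from total RNA isolated on columns. The platform annotation, which can be old, gave exactly 1 S. pombe gene to 2914 of the array's 10928 probe sets. Names were also looked up by gene id in the RefSeq table of assembly ASM294v3. Of several probe sets for a gene, the brightest was used. Signals were raised to the floor, log2 ratios were taken, and members were counted at 1.5-fold. No test was possible with 1 array per group. The members, lists, complexes and folds were chosen with earlier results of these data known. Values were given in full for the 5 highest and 5 lowest genes of each symbol group, for those 1.5-fold apart and for the proteases. Counting was tested on simulated data with planted 2-fold differences. No member differed by that much, so the simulation does not bear on counts near 1.5-fold. Alternatives covered the floor, scaling, loess trend (span 0.3), probe set rule, a minimum mean signal of 100, fold thresholds and, added after the data were seen, RefSeq symbols. Python 3.11.15, pandas 2.3.3 and statsmodels 0.14.6 were used.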

Additional observations from a re-analysis of the deposited data

How the results depend on the processing

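No paired analysis was possible because each group has 1 array. There were 7 alternatives. For floor and signal these were no floor with 16 added, a higher floor (99th percentile) and a mean signal of at least 100. The others were quantile normalization, median centring, loess removal and probe set means. Under all 7, 16 of 17 atg genes kept a ratio above 0. The higher floor, probe set means and minimum signal could not change an atg ratio. Each atg gene has 1 probe set, and the lowest atg signal on either array was 119. Median centring only shifted all ratios alike. The atg median lay between 0.42 and 0.52, the vps median between 0.11 and 0.17, and the vma median between −0.04 and 0.01, so its sign is not settled. The count of 2 members at least 1.5-fold lower was 1 with 16 added to each signal and 1 with a mean signal of at least 100, because vps51 is dim. The share of all measured genes that much lower was 6.09% and 6.27% there, against 6.61% as reported. At a log2 ratio of 0.322 or more, 21 members were higher and 4 lower, against 14.2% and 18.1% of all measured genes. At 2-fold 0 members were higher and 0 lower, against 2.25% and 2.04%. With 16 added, 6 members were at least 1.5-fold higher in place of 8 (atg4 and atg18 dropped out). With the loess trend removed 9 were (isp6 joined). The share of all measured genes moved too, to 5.05% with 16 added and 6.16% with the loess trend removed, against 5.68% as reported. Small ratios changed sign for vma4, vma11 and vps29 after quantile normalization and for vma4, vps29 and vps53 after loess removal. With RefSeq symbols in the rule, 67 genes were members, and 17 of 19 atg genes were above 0. Of the 67, 7 were at least 1.5-fold higher and 2 lower, against 5.68% and 6.61% of all measured genes. The gene vps902, which RefSeq calls muk1, was no member there, and the vps median was 0.17. Dim genes and 1 array per group limit all values.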

Other observations

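The 63 genes lie on all 3 chromosomes, with 38 on chromosome I, 19 on II and 6 on III in the RefSeq table. No 2 of them are adjacent protein-coding genes. The closest pairs, with 2 genes between them, are atg3 and vps36, vma6 and vps8, and vps45 and vps4. With 3 genes between them stand atg5 and vps25, with log2 ratios of 0.68 and 0.08, and vps1302 and vps10, with 0.64 and 0.42, as well as atg12 and vps66.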
